A study of Mus musculus with 2 samples.

Results

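Galectins are lectins that bind beta-galactoside sugars on glycoproteins and glycolipids. The genes described here are Lgals1, Lgals3, Lgals8 and Lgals9, which encode galectin-1, galectin-3, galectin-8 and galectin-9, together with Lgals3bp, which encodes a secreted glycoprotein that galectin-3 binds. They were taken as a named set, with no threshold on their values, and make up 5 of the 55401 genes in the count tables. Each was followed through every cell class of a mouse brain carrying melanoma and of a naive mouse brain, beside the free RNA of the same suspension.

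Galectins are made in the cytosol, leave the cell without a signal peptide, and cross-link sugar chains on receptors and matrix proteins outside it. Inside the cell, galectin-3, galectin-8 and galectin-9 also gather on damaged endosomes and lysosomes, where the sugars of the inner membrane face become exposed. In the brain galectin-3 is best known from activated microglia and infiltrating macrophages, and galectin-1 from vessel walls, reactive astrocytes and many tumours. Galectin-9 is known as a ligand of the checkpoint receptor Tim-3 (gene Havcr2) and is made by myeloid and endothelial cells. Lgals3bp and Lgals9 are both known to be inducible by interferons.

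The metastasis library was made from a pool of 3 brains of C57BL/6J mice aged 10 weeks that carried B16/F10-BrM cells, a brain-tropic variant of the mouse B16 melanoma line, placed intracranially. The naive library was made from a pool of 3 brains of C57BL/6J mice of the same age without tumour. Both were dissociated, cleared of myelin on Percoll, enriched with magnetic beads against ACSA-2 (an astrocyte surface antigen, a form of the sodium pump subunit Atp1b2) and run as single-cell RNA-seq with 10x 3' version 3 chemistry. The titles of both deposited records were exchanged by the submitters after deposit, and the groups follow the present titles, under which the melanosome gene Pmel had 174742 UMIs (unique molecular identifiers, 1 per captured transcript) in the metastasis library and 4774 in the naive library.

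After filtering, 13057 metastasis cells (median 2823 UMIs) and 13106 naive cells (median 2764 UMIs) were kept. There is 1 library per condition, so no replicate error can be given and no difference between the libraries was tested. Levels are UMIs of a gene per 1000000 UMIs of a class (CPM), and every interval given is a 95% interval that covers counting error only. Cells were grouped into 22 clusters, 20 of which took the name of a marker list. Clusters 1 and 20 were left unnamed. Bead enrichment and dissociation can set the makeup of both libraries: astrocyte-like cells, the target of the beads, were 333 of the metastasis cells and 1026 of the naive cells, while oligodendrocyte-like cells were 5318 and 5531. Atp1b2 was at 70.4 CPM over the kept metastasis cells and 163.6 CPM over the naive cells. The class named T/NK cell-like was also led by the neutrophil genes S100a8 and S100a9 and by immunoglobulin genes. Kept cells of the libraries shared 48 barcodes, where 25.2 would be shared by drawing from the barcode list at random, and 12 of these fell in the same class. The naive library held 18 melanoma-like cells with 6084 CPM of Pmel, and 0 of their barcodes were among the kept metastasis barcodes. These 18 cells carried 25.2% of the naive Lgals1 UMIs: Lgals1 was at 85.2 CPM over all naive cells with them and at 64.4 CPM without them. For the other members the naive level moved from 68.3 to 68.4 CPM (Lgals3), 32.0 to 31.2 CPM (Lgals3bp), 30.8 to 30.7 CPM (Lgals8) and 6.87 to 6.50 CPM (Lgals9) when they were left out. No comparison by class uses these cells, but the sums over all kept cells include them.

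Free RNA was read from barcodes with 100 to 300 UMIs, taken as droplets without a cell. Every member was higher in the free RNA of the metastasis library: Lgals1 was at 637 CPM against 194 CPM in naive, Lgals3 at 311 against 106, Lgals3bp at 148 against 36.8, Lgals8 at 33.5 against 18.9 and Lgals9 at 36.5 against 6.92. On the log2 scale these free RNA ratios were 1.71, 1.55, 2.01, 0.83 and 2.40. The part of free RNA in the levels of the classes was not tested, so each class is set beside it. Where free RNA was subtracted, its share was set from the markers of other classes. A level under 0 after subtraction means that this share was too large for that gene.

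The 5 genes lie apart in the genome (GRCm38, GENCODE M21, spans of the whole protein-coding genes). Lgals1 (ENSMUSG00000068220.6) is on chromosome 15 from 78926725 to 78930465 on the plus strand, and Lgals3 (ENSMUSG00000050335.17) on chromosome 14 from 47367751 to 47386160 on the plus strand. Lgals8 (ENSMUSG00000057554.13) is on chromosome 13 from 12439415 to 12464944 on the minus strand. Lgals3bp (ENSMUSG00000033880.11) and Lgals9 (ENSMUSG00000001123.15) both lie on the minus strand of chromosome 11, from 118392751 to 118402092 and from 78962974 to 78984946. Because Lgals3bp and Lgals9 are known as interferon-inducible and were among the 3 members higher in ependymal-like cells, where interferon-induced genes were higher too, the 250 bases before their RefSeq starts (GRCm38.p6, minus strand, written 5′ to 3′) are shown, with a match to the interferon-stimulated response element in capitals. RefSeq promoters were found for 4 of the 5 members, all but Lgals1. The Lgals3bp window is chr11:118401960-118402209 and the Lgals9 window chr11:78984925-78985174, and the outermost GENCODE start of each gene lies inside its window.
Lgals3bp: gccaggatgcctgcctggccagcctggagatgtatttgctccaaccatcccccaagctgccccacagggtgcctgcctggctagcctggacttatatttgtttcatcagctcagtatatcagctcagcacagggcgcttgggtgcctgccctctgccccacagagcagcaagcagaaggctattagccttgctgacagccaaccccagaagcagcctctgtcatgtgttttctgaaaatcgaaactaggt
Lgals9: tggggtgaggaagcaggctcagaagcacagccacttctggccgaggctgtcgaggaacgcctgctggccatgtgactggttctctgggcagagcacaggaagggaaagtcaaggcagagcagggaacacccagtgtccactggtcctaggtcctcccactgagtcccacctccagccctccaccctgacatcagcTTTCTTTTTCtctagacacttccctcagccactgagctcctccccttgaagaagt
Letters were searched on both strands over 300 bases, from 250 before to 50 after the start. The response element, read as GAAA, any 2 bases and GAAA, matched at 2 places in Lgals9, on the reverse strand at position -55 (TTTCTTTTTC, in capitals above) and at position 16 after the start (TTTCTGTTTC), and in none of Lgals3, Lgals3bp and Lgals8. It is held by 3.44% of all 32851 promoters of that length. The STAT element (TTCNNNGAA, 8.3% of promoters) and the AP-1 element (TGANTCA, 7.81%) matched in 0 of the 4 members. The GC box (GGGCGG, 35.7%) matched in Lgals3, at -7 on the reverse strand and at 5 after the start. These are letter matches within 1 window and say nothing of binding.

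Over all kept cells every member was higher in the metastasis library, by 3.11 on the log2 scale for Lgals1, 2.27 for Lgals3, 2.11 for Lgals3bp, 0.40 for Lgals8 and 2.87 for Lgals9. Among all 21736 genes measured over all kept cells (at least 20 UMIs in both libraries together), 13.1% were at least 2-fold higher in metastasis and 14.8% at least 2-fold lower. These sums mix cells that only 1 library holds in number. Melanoma-like cells carried 68.2% of the metastasis Lgals1 UMIs, 41.4% of Lgals9, 35.5% of Lgals8, 26.1% of Lgals3bp and 11.9% of Lgals3. Cluster 1 carried 67.3% of the metastasis Lgals3 UMIs and 44.6% of Lgals3bp. In the naive library the same genes sat elsewhere. Choroid plexus epithelium-like cells held 43.0% of Lgals1 and 46.9% of Lgals3bp, ependymal-like cells 76.0% of Lgals3, oligodendrocyte-like cells 52.1% of Lgals8 and microglia-like cells 44.4% of Lgals9. Comparisons were therefore made class by class.

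**Figure D1:**
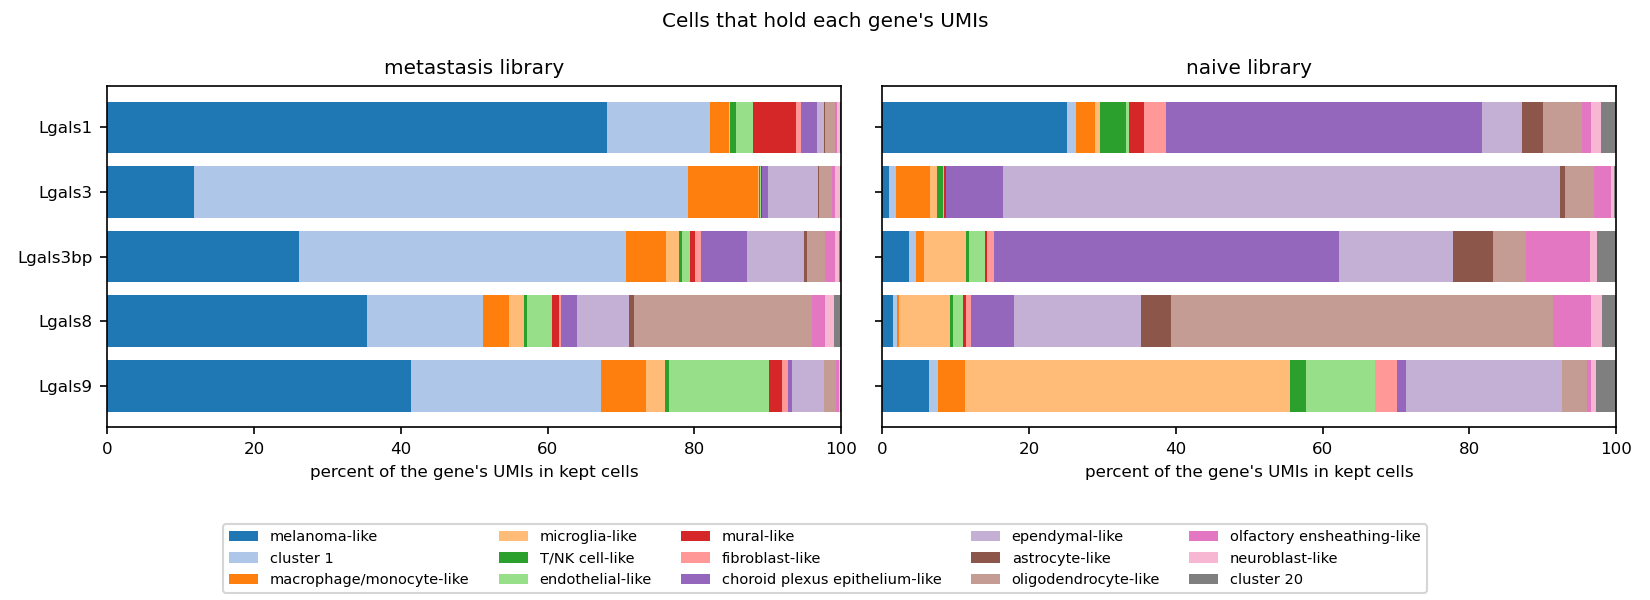
Percent of each gene's UMIs in kept cells (horizontal axis) held by each cell class, for the metastasis library (left) and the naive library (right). Melanoma-like cells and cluster 1 fill most of the metastasis bars of Lgals1 and Lgals3, with 68.2% and 67.3%, while ependymal-like cells fill 76.0% of the naive Lgals3 bar and oligodendrocyte-like cells 52.1% of the naive Lgals8 bar.

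Lgals1, whose product is a small galectin that pairs into dimers, was a gene of vessel wall, stroma, tumour and immune cells. Mural-like cells, the contractile pericytes and smooth muscle of vessels, stood highest in the metastasis library with 3593 CPM (3462 to 3728, 134 cells) and had 377 CPM (302 to 466, 101 cells) in the naive library. Their log2 ratio was 3.25 (2.94 to 3.58), or 9.53-fold. After each cell was thinned to 1000 UMIs, 68.7% of metastasis and 19.8% of naive mural-like cells had an Lgals1 UMI (76.1% and 34.7% unthinned), against 4.83% and 1.34% of oligodendrocyte-like cells (12.1% and 3.63% unthinned, median depths 2744 and 2970 UMIs, against 4040 and 1553 in mural-like cells). The summed melanoma markers were at 278 CPM in the metastasis mural-like cells, beneath their 5651 CPM in free RNA. With a minimum of 500 UMIs per cell the mural-like ratio was 1.61. Melanoma-like cells came next with 1611 CPM (1594 to 1629, 690 cells), or 49.1 Lgals1 UMIs per cell at a median depth of 29865 UMIs.

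Fibroblast-like cells had 1243 CPM of Lgals1 in metastasis (101 cells) and 751 CPM in naive (69 cells), a log2 ratio of 0.73 (0.43 to 1.03). The T/NK cell-like class had 1192 and 869 CPM, a ratio of 0.46 (0.18 to 0.74), and its metastasis interval overlapped that of the fibroblast-like cells. Macrophage/monocyte-like cells had 768 CPM (453 cells) and 558 CPM (62 cells), a ratio of 0.46 (0.17 to 0.77), and choroid plexus epithelium-like cells 321 and 238 CPM, a ratio of 0.43 (0.32 to 0.54). All 4 classes stood above the free RNA of the naive library, and the first 3 above that of the metastasis library too. In the naive library the T/NK cell-like, fibroblast-like, macrophage/monocyte-like and mural-like classes, the highest in that order, overlapped each with its neighbour, so the order of neighbours is not resolved, while the T/NK cell-like interval (731 to 1024 CPM) lay above those of macrophage/monocyte-like (455 to 676 CPM) and mural-like cells.

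Endothelial-like cells, which line vessels, had 428 CPM of Lgals1 in metastasis (208 cells) and 42.0 CPM in naive (115 cells), a log2 ratio of 3.35 (2.64 to 4.16). Both levels lay under the free RNA of their library. Different clusters hold this class in the libraries. Cluster 17, led by Igfbp3 and Plvap, had 153 metastasis cells and 0 naive cells, and carried 459 CPM. Cluster 15, led by the barrier genes Ly6c1, Slco1a4 and Cldn5, had 39.4 CPM in 55 metastasis cells (8 UMIs) and 42.0 CPM in 115 naive cells (16 UMIs), a log2 ratio of -0.09 (-1.52 to 1.22). The direction over the class did not hold within cluster 15. Erythrocyte markers, mostly hemoglobin genes, were also high in cluster 15, with a median log2 fold of 4.66 beside 3.81 for the endothelial markers. In naive, 5 cells held 13 of the 16 UMIs. With a minimum of 500 UMIs per cell in place of 1000 the ratio over the class was 0.20. The median depth was 5576 UMIs in metastasis and 2504 in naive endothelial-like cells.

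**Figure D2:**
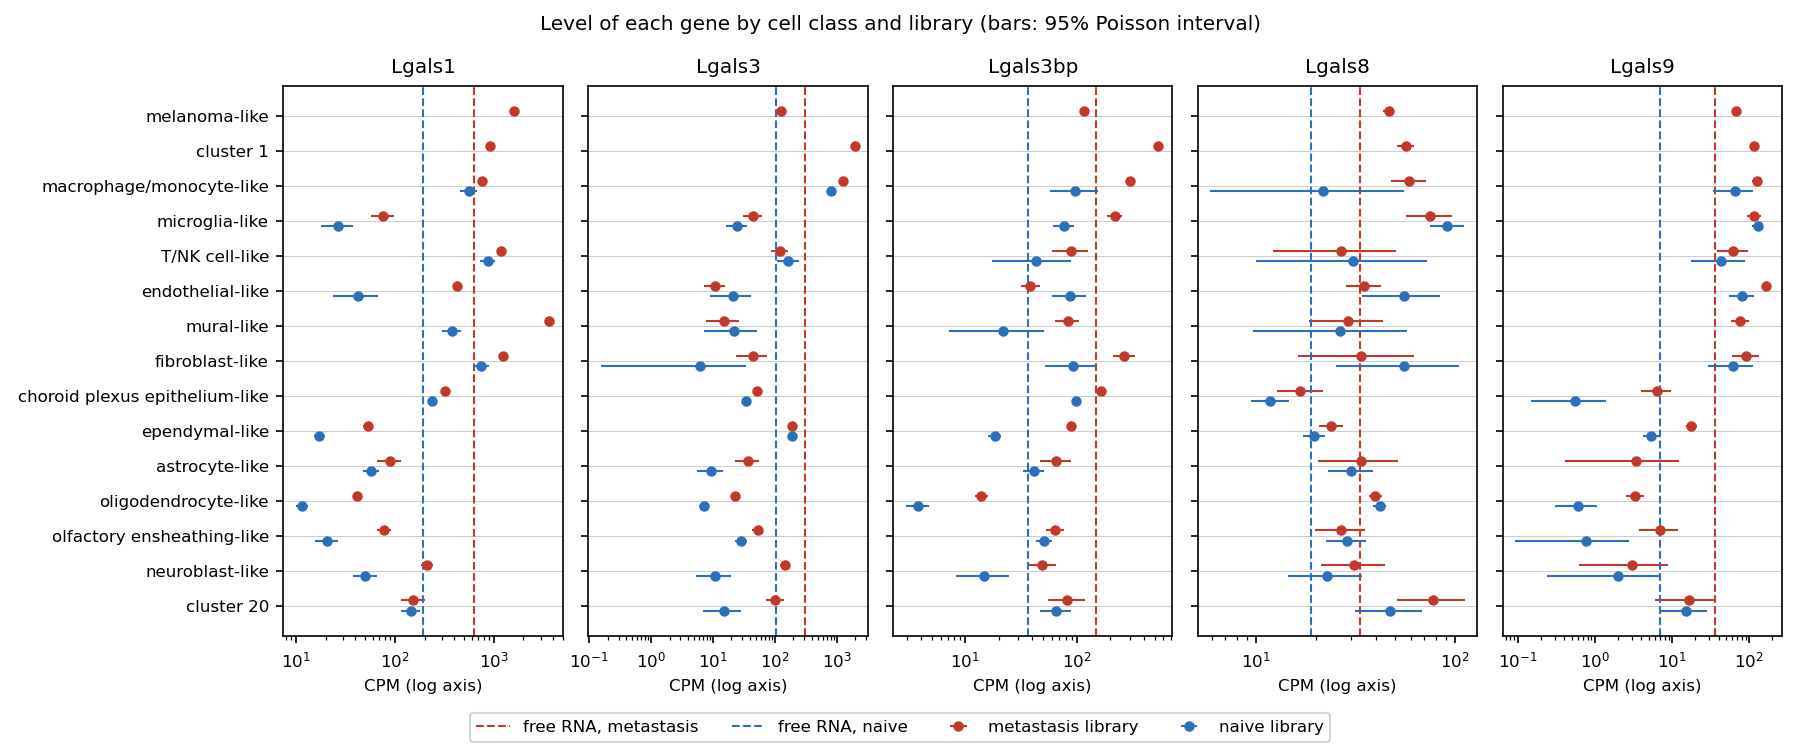
Level of each gene in CPM (horizontal log axis) by cell class (vertical axis), with red points for the metastasis library, blue points for the naive library, 95% Poisson intervals as bars, and dashed lines at the level in free RNA of each library. Classes with at least 50 cells are drawn and a sum of 0 is not drawn. Lgals1 peaks in metastasis mural-like cells (3593 CPM), Lgals3 in cluster 1 (1946 CPM), and Lgals8 spans a narrow range.

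Lgals3, whose product joins a sugar-binding domain to a tail that lets it form larger assemblies, was concentrated in phagocytes and in ependymal-like cells. Cluster 1 had 1946 CPM (1915 to 1978, 1245 metastasis cells), and 59.4% of its cells had an Lgals3 UMI after thinning (79.0% unthinned) against 2.58% of oligodendrocyte-like cells. This cluster was led by Ms4a7, Wfdc17, Lyz2, Spp1, Hmox1 and Pf4, with Lgals3 itself among its leading genes, although all galectin genes were kept out of the clustering. It carried 23168 summed CPM of the macrophage/monocyte markers and 4720 of the microglia markers. By the median log2 fold of the markers the microglia list was the nearest, at 0.66, with 0.57 for macrophage/monocyte. Both medians lay under the limit of 1 for a name, so the cluster is assigned to neither type. Only 27 naive cells fell in it, with 417 CPM of Lgals3 (32 UMIs), so no comparison between libraries is made for it. Macrophage/monocyte-like cells, led by class II and Il1b transcripts, had 1276 CPM (1222 to 1331, 453 cells) in metastasis against 818 CPM (692 to 959, 62 cells) in naive, a log2 ratio of 0.64 (0.40 to 0.89). In the naive class, 5 of the 62 cells held 60.3% of the 151 UMIs. Without the 5 cells of each library that held the most Lgals3 UMIs, the ratio was 1.60, and with every cell weighing the same it was 1.06. Thinned shares of Lgals3 cells were 49.7% and 22.6%.

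Microglia-like cells, led by P2ry12, Gpr34 and Siglech, had 43.9 CPM of Lgals3 (34 UMIs, 458 cells) in metastasis and 24.9 CPM (28 UMIs, 621 cells) in naive, a log2 ratio of 0.82 (0.05 to 1.59). Both levels were under the free RNA. The class is set by such markers and may not hold all microglia of the metastasis library. With cells named one by one, 719 metastasis and 614 naive cells were microglia-like. Whether microglia lie in cluster 1 was not tested. When the 3 phagocyte groups (cluster 1, macrophage/monocyte-like and microglia-like; 2156 metastasis and 710 naive cells) were summed, Lgals3 stood at 1691 against 152 CPM, a log2 ratio of 3.47 (3.28 to 3.68). Cluster 1 supplied 14966 of the 17115 metastasis UMIs of this sum.

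Ependymal-like cells, which line the ventricles and carry cilia, held Lgals3 at 187 CPM (177 to 196, 2325 cells) in metastasis against 191 CPM (183 to 198, 3211 cells) in naive. The log2 ratio was -0.03 (-0.12 to 0.06), and after thinning 15.7% of cells in each library had an Lgals3 UMI. In naive these levels were above the free RNA (106 CPM), and in metastasis below it (311 CPM). Cluster 4 had 197 CPM in metastasis against 199 CPM in naive. Cluster 3, which holds 949 metastasis cells and 13 naive cells, had 195 CPM in metastasis. Cluster 5, led by axonemal dynein genes, had 78.4 and 71.7 CPM. Before any subtraction of free RNA, Lgals3 was thus nearly level across the libraries in each ependymal-like cluster in which both libraries had at least 50 cells. After subtraction of the free RNA the class stood at 160.5 CPM in metastasis against 210.9 CPM in naive, a log2 ratio of -0.39. The shares subtracted, 17.4% and 19.3%, put Lgals1 of the same class at -69.3 and -25.1 CPM. They were thus too large for Lgals1, and the fall in Lgals3 after subtraction is not resolved.

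In neuroblast-like cells Lgals3 was at 144 CPM in metastasis against 10.9 CPM in naive (log2 ratio 3.73, 2.84 to 4.76), but 1 cell held 73 of the 143 metastasis UMIs and 5 cells held 75.5%. In astrocyte-like cells Lgals3 was at 37.0 CPM (22 UMIs) and 9.34 CPM (19 UMIs), a log2 ratio of 1.99 (1.03 to 2.95), at levels under the free RNA of both libraries. Lgals1 in astrocyte-like cells was at 89.1 CPM (53 UMIs) and 58.0 CPM (118 UMIs), a ratio of 0.62 (0.12 to 1.10), also under the free RNA, and a ratio of 0.08 in cells with at least 2000 UMIs. After subtraction of the free RNA, both genes were under 0 in the metastasis astrocyte-like cells.

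Lgals3bp, the secreted galectin-3 ligand, was highest in cluster 1 in the metastasis library. Its ratio lay above 0 in 12 of the 13 classes compared, beside a ratio of 2.01 in free RNA. The whole interval lay above 0 in 9 classes and below 0 in 1. After subtraction of the free RNA the direction turned in astrocyte-like cells (40.2 against 42.5 CPM in naive) and olfactory ensheathing-like cells (46.2 against 54.4 CPM). The shares subtracted were 23.6% and 21.8% in astrocyte-like cells and 17.8% and 19.1% in olfactory ensheathing-like cells. They put astrocyte-like Lgals3 at -47.6 and -17.6 CPM and olfactory ensheathing-like Lgals1 at -41.9 and -20.4 CPM. These shares were too large for those genes, so the turn in Lgals3bp is not resolved. Cluster 1 had 541 CPM (524 to 557). Macrophage/monocyte-like cells had 301 CPM (499 UMIs) in metastasis against 97.5 CPM (18 UMIs) in naive, a log2 ratio of 1.63 (0.95 to 2.39). Microglia-like cells had 221 CPM (189 to 257) in metastasis against 76.4 CPM (61.1 to 94.4) in naive, a ratio of 1.53 (1.15 to 1.92), with 16.8% and 7.41% of thinned cells carrying a UMI (27.1% and 10.95% unthinned). In cells with at least 2000 UMIs, where clusters were drawn anew, the ratio was 2.59. Both microglial levels were above the free RNA of their own library. The macrophage/monocyte markers in microglia-like cells summed to 723 CPM in metastasis and to 212 CPM in the naive library, beside 22569 and 25680 CPM of their own markers, and the part of these in the result was not tested. Fibroblast-like cells had 266 CPM (79 UMIs) and 92.4 CPM (15 UMIs), a ratio of 1.53 (0.72 to 2.43). Choroid plexus epithelium-like cells had 166 and 97.7 CPM, a ratio of 0.77 (0.61 to 0.93).

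In ependymal-like cells Lgals3bp was at 88.8 CPM (82.5 to 95.6) in metastasis against 18.3 CPM (16.1 to 20.8) in naive, a log2 ratio of 2.28 (2.06 to 2.49). Both levels lay under the free RNA of their library. Cluster 3, whose leading genes include the interferon-induced Ifit3, carried 135 CPM in metastasis, with 195 CPM (17 UMIs) in its 13 naive cells. Cluster 4 carried 41.6 CPM in metastasis against 17.6 CPM in naive, a ratio of 1.24 (0.93 to 1.56), and cluster 5 carried 58.0 and 11.4 CPM, a ratio of 2.35 (1.31 to 3.52). Without cluster 3 the class had a ratio of 1.36, and with a minimum of 500 or 2000 UMIs per cell it had 1.42 or 1.37. The macrophage/monocyte markers in ependymal-like cells summed to 200.7 CPM in metastasis against 3.68 CPM in naive, beside 2291 and 57.3 CPM in free RNA, and their part in the result was not tested. After subtraction of the free RNA, Lgals3bp stood at 76.5 CPM in metastasis against 13.9 CPM in naive.

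Endothelial-like cells were the exception, with 38.4 CPM of Lgals3bp (106 UMIs) in metastasis and 86.6 CPM (33 UMIs) in naive, a log2 ratio of -1.17 (-1.75 to -0.56). Here too the clusters differ. Cluster 17 was at 32.5 CPM, while cluster 15 was at 113 CPM (23 UMIs) in metastasis against 86.6 CPM in naive, a ratio of 0.39 (-0.45 to 1.20). The direction over the class therefore did not hold within cluster 15, and with a minimum of 500 UMIs per cell the ratio over the class was 0.27.

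**Figure D3:**
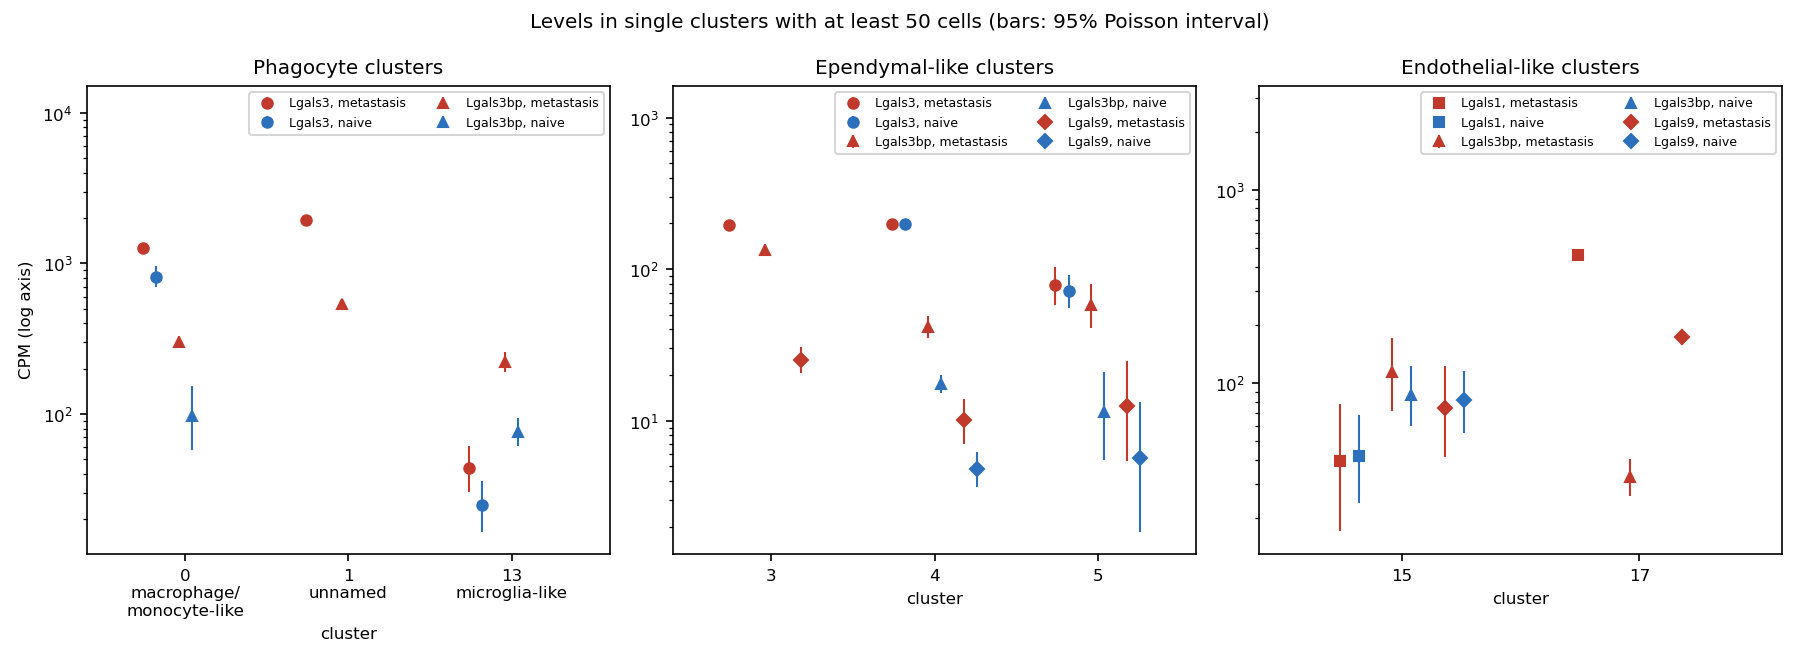
Levels in CPM (vertical log axes) in the single clusters (horizontal axes) of phagocytes, ependymal-like cells and endothelial-like cells, in red for the metastasis library and blue for the naive library, with 95% Poisson intervals as bars; a cluster is drawn for a library that has at least 50 cells in it. Lgals3bp reaches 541 CPM in cluster 1 and 135 CPM in ependymal-like cluster 3, and Lgals1 reaches 459 CPM in endothelial-like cluster 17 against 39.4 CPM in cluster 15 of the same library.

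Lgals9, whose product carries a pair of sugar-binding domains on 1 chain, was found in microglia-like, macrophage, endothelial-like and fibroblast-like cells and the T/NK cell-like class. In metastasis, melanoma-like cells (66.8 CPM, 63.4 to 70.4, 1405 UMIs) and mural-like cells (77.0 CPM) also stood above the free RNA. Fibroblast-like cells had 91.0 CPM (27 UMIs) in metastasis and 61.6 CPM (10 UMIs) in naive, and the T/NK cell-like class 62.3 CPM (21 UMIs) and 43.1 CPM (7 UMIs), all above the free RNA. In naive brain, microglia-like cells stood highest with 130 CPM (110 to 153, 146 UMIs), and in metastasis they had 115 CPM (92.3 to 141, 89 UMIs), a log2 ratio of -0.18 (-0.57 to 0.21). Thinned shares were 11.1% in naive and 9.17% in metastasis, against 0.09% and 0.36% of oligodendrocyte-like cells. Macrophage/monocyte-like cells had 125 CPM in metastasis against 65.0 CPM (12 UMIs) in naive, a ratio of 0.94 (0.11 to 1.92), and cluster 1 had 114 CPM (107 to 122). The phagocytes of the metastasis library had overlapping intervals with one another, and summed over all phagocytes Lgals9 was level, at 116 against 117 CPM (log2 ratio -0.01, -0.25 to 0.23). That sum is mostly cluster 1 in metastasis and mostly microglia-like cells in naive, so it compares unlike mixes of cells.

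Endothelial-like cells had the highest Lgals9 of the metastasis library, 166 CPM (151 to 182), and 81.4 CPM (55.3 to 116) in naive, a log2 ratio of 1.03 (0.51 to 1.61). Cluster 17 had 174 CPM and cluster 15 had 73.9 CPM (15 UMIs) in metastasis against 81.4 CPM (31 UMIs) in naive, a ratio of -0.14 (-1.13 to 0.79). With a minimum of 500 UMIs per cell the ratio over the class was -0.16. Mural-like cells had 61 UMIs in metastasis (77.0 CPM) and 0 in naive, which is 5.85-fold higher if the naive sum is set to a floor of 3 UMIs. The counting interval of that log2 ratio, which allows for more than the floor, began at 2.21. In ependymal-like cells Lgals9 was at 17.8 CPM in metastasis against 5.37 CPM in naive, a ratio of 1.73 (1.31 to 2.16), at levels under the free RNA. Without cluster 3 the ratio was 1.10. Cluster 3 had 25.3 CPM in metastasis and is not compared between the libraries, since it held only 13 naive cells. Cluster 4 had 10.0 against 4.80 CPM, a ratio of 1.06 (0.41 to 1.69). Astrocyte-like cells had 2 and 0 Lgals9 UMIs, so no fold is given.

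Lgals8, the other galectin with paired domains and the one whose product recruits the autophagy receptor Calcoco2 to damaged vesicles, spanned a narrow range over the classes with at least 50 cells. Its naive levels ran from 91.6 CPM in microglia-like cells to 11.8 CPM in choroid plexus epithelium-like cells, and its metastasis levels from 77.2 CPM in cluster 20 to 16.7 CPM in the choroid plexus class. Microglia-like cells had 74.9 CPM (58 UMIs) in metastasis against 91.6 CPM (103 UMIs) in naive, a log2 ratio of -0.29 (-0.78 to 0.19). Oligodendrocyte-like cells, which held 52.1% of the naive Lgals8 UMIs, had 39.8 CPM (668 UMIs) and 41.7 CPM (768 UMIs), a ratio of -0.07 (-0.22 to 0.08), above the free RNA of both libraries. Of the 11 classes with enough UMIs, 1 was past 2-fold: macrophage/monocyte-like cells with 97 against 4 UMIs, a ratio of 1.43 (0.03 to 3.34). Summed over all phagocytes the direction turned, with 58.2 against 82.9 CPM (log2 ratio -0.51, -0.80 to -0.21). That sum compares unlike mixes of cells: cluster 1 gave 1245 of its 2156 metastasis cells, and microglia-like cells 621 of its 710 naive cells.

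In oligodendrocyte-like cells the members other than Lgals8 lay under the free RNA. Lgals1 was at 41.6 CPM in metastasis against 11.6 CPM in naive, Lgals3 at 23.0 and 7.23, Lgals3bp at 13.9 and 3.75, and Lgals9 at 3.33 and 0.60 CPM. The log2 ratios were 1.84, 1.67, 1.89 and 2.48, beside 1.71, 1.55, 2.01 and 2.40 in free RNA. All 4 levels were under the free RNA in both libraries and under 0 once free RNA was subtracted, for which markers of other classes put the share of free RNA at 11.99% of the metastasis and 12.9% of the naive UMIs of this class. For comparison, that share was 17.4% and 19.3% in ependymal-like cells and 22.0% and 12.5% in microglia-like cells.

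**Figure D4:**
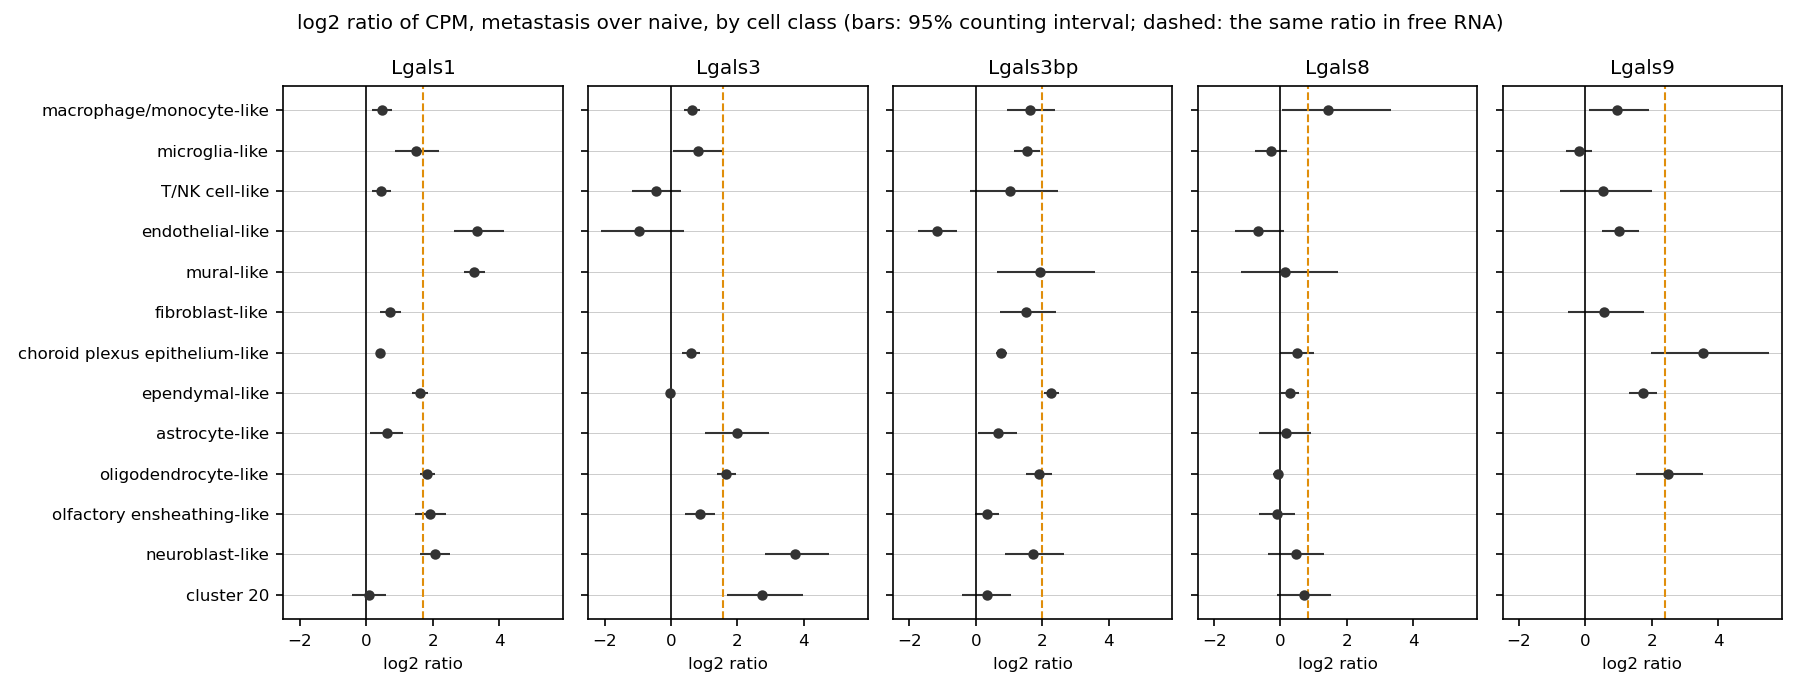
log2 ratio of CPM, metastasis over naive (horizontal axes), for each gene by cell class (vertical axis) with 95% counting intervals as bars; the dashed line is the same ratio in free RNA. Mural-like and endothelial-like cells stand right of the free RNA line for Lgals1 (3.25 and 3.35 against 1.71), ependymal-like cells sit at -0.03 for Lgals3, and oligodendrocyte-like cells lie close to the dashed line for every gene but Lgals8; mural-like Lgals9, with 0 naive UMIs, is not drawn.

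The counts of members read as follows against all genes of the same class with at least 20 UMIs. In ependymal-like cells 3 of 5 measured members (Lgals1, Lgals3bp, Lgals9) were at least 2-fold higher in metastasis, where 3.7% of 16401 genes were, and 0 were at least 2-fold lower, where 1.23% were. Ependymal-like Lgals1 was at 53.2 CPM in metastasis against 17.3 CPM in naive, under the free RNA of both libraries, with a log2 ratio of 1.62 beside 1.71 in free RNA, and was under 0 in both once free RNA was subtracted. In oligodendrocyte-like cells it was 4 of 5 against 4.85% of genes, and 0 lower against 1.26%. In microglia-like cells 2 of 5 were higher (Lgals1 and Lgals3bp) against 2.23%, and 0 lower against 2.48%. Microglia-like Lgals1 was at 76.2 CPM (59 UMIs) in metastasis and 26.7 CPM (30 UMIs) in naive, under the free RNA of both libraries, and at -82.0 CPM in metastasis once free RNA was subtracted. In macrophage/monocyte-like cells 2 of 5 were higher (Lgals3bp and Lgals8) against 11.8%, and 0 lower against 8.18%. In mural-like cells 3 of 4 were higher (Lgals1, Lgals3bp, Lgals9) against 22.9%, and 0 lower against 16.1%. In endothelial-like cells 2 of 5 were higher (Lgals1 and Lgals9) against 17.5%, and 1 lower (Lgals3bp) against 17.1%, a share near the background. In neuroblast-like cells 3 of 4 were higher (Lgals1, Lgals3, Lgals3bp) against 3.87%, and 0 lower against 2.78%. Their metastasis levels of 212, 144 and 49.4 CPM lay under the free RNA, and 5 cells held 40%, 75.5% and 57.1% of those UMIs. In choroid plexus epithelium-like cells 1 of 5 was higher (Lgals9, with 22 against 4 UMIs) against 4.63%, and 0 lower against 1.08%. In astrocyte-like cells 1 of 4 (Lgals3) was higher against 2.63%, and 0 lower against 3.44%. In olfactory ensheathing-like cells 1 of 4 (Lgals1, under the free RNA) was higher against 2.67%, and 0 lower against 1.24%. In fibroblast-like cells 1 of 3 (Lgals3bp) was higher against 8.78%, and 0 lower against 3.16%. In the T/NK cell-like class 1 of 4 (Lgals3bp) was higher against 8.37%, and 0 lower against 3.54%. In cluster 20 it was 1 of 4 (Lgals3, 37 against 9 UMIs) against 4.74%, and 0 lower against 3.21%.

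Seen by gene over the 13 classes compared, Lgals1 was at least 2-fold higher in metastasis in 7 of 13 classes with enough UMIs, Lgals3 in 4 of 11, Lgals3bp in 8 of 13, Lgals8 in 1 of 11 and Lgals9 in 5 of 9. The share of all genes as much higher ran from 2.23% to 22.9% by class. Of the classes counted, only mural-like cells stood above the metastasis free RNA for Lgals1, and all lay under it for Lgals3. Those above it for Lgals3bp were fibroblast-like, macrophage/monocyte-like and microglia-like cells, and for Lgals9 endothelial-like and mural-like cells. Medians of the log2 ratios were 1.52, 0.82, 1.53, 0.17 and 1.03. Of the 15 classes with at least 50 metastasis cells, the level exceeded that of the free RNA in 6 for Lgals1, 2 for Lgals3, 5 for Lgals3bp, 9 for Lgals8 and 8 for Lgals9.

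Lists of partner genes were counted in the same way. Of 18 surface glycoproteins and receptors known to bind galectins, 12 were measured in microglia-like cells and 0 passed 2-fold in either direction (median log2 ratio 0.05, all genes -0.01). Lag3, a checkpoint receptor known to bind galectin-3, was at 293 CPM in metastasis against 170 CPM in naive microglia-like cells, a ratio of 0.79 (0.50 to 1.07), and Havcr2 at 186 and 235 CPM, a ratio of -0.34 (-0.64 to -0.04). In macrophage/monocyte-like cells 0 of 13 partners passed 2-fold (median 0.33). In endothelial-like cells, which sit in different clusters in the libraries, 4 of 12 were higher and 1 lower (median 0.66), where 17.5% and 17.1% of all genes were, among them the integrin gene Itga5 at 79.7 against 15.7 CPM, a ratio of 2.34 (1.19 to 3.80), and the vascular growth factor receptor gene Kdr at 1153 against 706 CPM, a ratio of 0.71 (0.53 to 0.89). In mural-like cells 3 of 8 were higher and 1 lower (median 0.82), where 22.9% and 16.1% of all genes were, with the integrin gene Itgb1 at 1881 against 1035 CPM, a ratio of 0.86 (0.66 to 1.07). In ependymal-like cells 4 of 14 were higher and 0 lower, where 3.7% and 1.23% of all genes were. Among the 4 were Cd44 (27.0 against 13.4 CPM) and Trem2 (27.0 against 4.45 CPM), both under or near the free RNA (49.5 and 391 CPM in metastasis).

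Another list held enzymes that branch and cap the sugar chains galectins read. Of 11 listed genes, 0 of 10 in ependymal-like cells, 0 of 9 in microglia-like cells and 0 of 10 in oligodendrocyte-like cells passed 2-fold in either direction. In endothelial-like cells 3 of 9 were higher and 3 lower, where 17.5% and 17.1% of all genes were. Over that class, which is cluster 15 alone in naive, the fucosyltransferase gene Fut8 was at 43.5 against 302 CPM, a log2 ratio of -2.80 (-3.18 to -2.41), and the branching enzyme gene Mgat1 at 96.0 against 39.4 CPM, a ratio of 1.29 (0.54 to 2.14). Of the 9 genes of the response to galectin-marked lysosomes, 0 of 9 in ependymal-like cells passed 2-fold (median 0.04), and 0 were higher and 1 lower of 6 in microglia-like cells. Sqstm1, an autophagy receptor gene, was at 108 against 73.8 CPM in microglia-like cells (ratio 0.56, 0.10 to 1.01) and at 58.7 against 158 CPM in endothelial-like cells (ratio -1.42, -1.86 to -0.97).

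The interferon response list was higher beside Lgals3bp and Lgals9 in ependymal-like cells. All 16 of 16 genes were at least 2-fold higher there in metastasis (median log2 ratio 3.61, all genes 0.03), where 3.7% of all genes were. They were led by the GTPase genes Iigp1 at 247 against 6.37 CPM (5.28, 4.96 to 5.61) and Igtp at 216 against 9.28 CPM (4.54, 4.28 to 4.82), and by the ubiquitin-like Isg15 at 262 against 12.3 CPM (4.41, 4.18 to 4.65). In microglia-like cells 10 of 12 were higher (median 1.13), where 2.23% of all genes were. In macrophage/monocyte-like cells it was 14 of 16 (median 1.76) against 11.8% of all genes, and Gbp2 had 633 against 1 UMIs there. In endothelial-like cells 1 of 16 was higher and 9 were lower (median -1.17), where 17.5% and 17.1% of all genes were. That class sits in different clusters in the libraries. Interferon genes were also higher in the free RNA of the metastasis library: Iigp1 was there at 69.4 CPM against 1.40 in naive and Isg15 at 127 against 12.7. In oligodendrocyte-like cells 14 of 16 were higher, where 4.85% of all genes were, at levels under the free RNA for the named genes, such as Iigp1 at 9.94 CPM. The part of the interferon list in the levels of Lgals3bp and Lgals9 was not tested.

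Of 13 genes of phagocyte activation, 7 of 12 were higher in microglia-like cells (median 1.18), where 2.23% of all genes were. The lipid carrier gene Apoe was there at 6892 against 1887 CPM, a log2 ratio of 1.87 (1.80 to 1.94), under the 16639 CPM of Apoe in metastasis free RNA. In macrophage/monocyte-like cells 8 of 13 were higher (median 1.11), where 11.8% of all genes were. Spp1 had 326 against 1 UMIs there, and its 197 CPM in metastasis lay under the 461 CPM of Spp1 in metastasis free RNA.

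Cells with UMIs of both Lgals1 and Lgals3 were counted after thinning. Both genes were found in 0.21% (0.10 to 0.37) of metastasis oligodendrocyte-like cells, where both lay under the free RNA. In cluster 1, 28.8% (26.3 to 31.4) of cells had UMIs of both genes, as did 25.6% (21.7 to 29.9) of metastasis and 14.5% (6.86 to 25.8) of naive macrophage/monocyte-like cells. In melanoma-like cells 6.38% had both, and 0 of 458 metastasis and 0 of 621 naive microglia-like cells did (upper limits 0.80% and 0.59%). The microglia-like class may not hold all microglia of the metastasis library.

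Genes whose level followed each member most closely over the classes were listed by Pearson's r of log2(CPM + 10) over 28 points, each a class in 1 library, so that the points share libraries and depth, among 11647 genes. For Lgals3 the closest were AB124611, Cd72, Lilr4b, Mx1 and Cybb (r from 0.83 to 0.84), and for Lgals9 Ubtd1, Rap1b, Acsl5, Tgfb1 and Ly96 (0.87 to 0.90). For Lgals3bp they were Bst2, Ninj1, Glb1, Cxcl16 and Vamp8 (0.76 to 0.79), for Lgals8 Washc4, Adam15, Arl8b and Epb41l2 were among them (0.75 to 0.80), and for Lgals1 Tuba1c, Abracl, Impa2, Serf2 and Ldha (0.79 to 0.80). Among the members, r ran from -0.05 (Lgals1 with Lgals8) to 0.62 (Lgals3bp with Lgals9). The lists depend on the constant added. With log2(CPM + 1), only Mx1 and Cybb stayed among the 5 closest to Lgals3, and only Ubtd1 and Rap1b for Lgals9. Ninj1 left the list of Lgals3bp, while the named genes of Lgals1 and Lgals8 stayed.

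Of 7 other galectin-family genes listed, Lgals6 was not analysed here. Lgalsl had 1845 UMIs in kept metastasis cells (27.3 CPM) and 1071 in naive cells (22.3 CPM), with 68.9 and 64.4 CPM in astrocyte-like cells, a log2 ratio of 0.10 (-0.44 to 0.61). Lgals2, Lgals4, Lgals12 and Grifin had at most 226 UMIs in the kept cells of either library.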

How the data were processed

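The authors deposited whole-number UMI counts per gene and barcode for 2 libraries, aligned with STARsolo to GRCm38 per the submitters' processing notes; their versions are not given in the sources used here. Barcodes with at least 1000 UMIs, 500 genes and at most 20% mitochondrial UMIs were kept, and 688 metastasis and 889 naive barcodes with a scrublet score above 0.2 were removed as doublets, a limit set after seeing that the automatic threshold called 0 in metastasis. Cells were clustered without the galectin genes (scanpy 1.11.5, Python 3.11.15) and named from marker lists; naming limits were set after seeing the data. Levels are summed UMIs per 1000000 UMIs with exact Poisson intervals, shares have exact Clopper-Pearson intervals, ratios have exact conditional binomial intervals (scipy 1.17.1), and all are at 95%. A class entered comparisons with at least 50 cells in each library, and a gene with at least 20 UMIs in both together. All 5 members are named in the text, with the 5 genes most like each over the classes (1 of those for Lgals8 is not reported here) and, per list and class, up to 3 genes with the largest ratio among those with at least 100 UMIs; Cd44 and Trem2 in ependymal-like cells were chosen after their values were seen. Members and lists were chosen with earlier results of these data known. Alternatives covered filters, doublets, clustering, scaling, free RNA and single cells.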

Additional observations from a re-analysis of the deposited data

Results flagged for a closer look

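Lgals3bp differed in opposite directions between 2 classes under the same comparison: its log2 ratio of metastasis over naive was 2.28 in ependymal-like cells and -1.17 in endothelial-like cells. With 1 library per condition the difference between these ratios was not tested. Within endothelial-like cluster 15 alone the ratio was 0.39, on the other side of 0.

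The naive library held 1029 Lgals1 UMIs in 18 melanoma-like cells (1933 CPM, 1817 to 2055), a class with too few naive cells for the comparisons.

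Lgals7, a galectin gene that is no member of the set, had 792 of its 824 kept metastasis UMIs (96.1%) in melanoma-like cells. In naive it had 32 UMIs in kept cells, 26 of them in the 18 melanoma-like cells.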

How the results depend on the processing

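No paired analysis was possible because each condition has 1 library. Of 707 results under alternatives, 640 stayed within their counting interval, 58 moved and 9 reversed. The cause was not tested. A change of sign was counted as reversed only where the main interval did not span equal levels. Other changes of sign are among the 58. In cluster 15 alone, endothelial-like Lgals3 went from -0.95 to 0.91 and Lgals8 from -0.66 to 0.10. Subtraction of free RNA left 38 results, because a ratio needs a positive level in both libraries. No result moved with scaling that leaves out mitochondrial, ribosomal and hemoglobin genes, or without the shared barcodes. The 640 include 52 from the setting without a minimum of UMIs per gene. That setting leaves these ratios as they are, so it says nothing of their stability. All values here are log2 ratios.

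With at least 500 UMIs per cell, endothelial-like Lgals1 was 0.20, Lgals3bp 0.27 and Lgals9 -0.16, ependymal-like Lgals3bp 1.42 and Lgals9 1.19, and mural-like Lgals1 1.61. With at least 2000, astrocyte-like Lgals1 was 0.077, endothelial-like Lgals1 1.25, ependymal-like Lgals3 0.19, Lgals3bp 1.37 and Lgals9 1.29, and microglia-like Lgals3bp 2.59; 4 classes were lost. With at most 10% mitochondrial UMIs, ependymal-like Lgals3bp was 1.30 and Lgals9 1.27. Macrophage/monocyte-like Lgals3 was 1.37 under that limit, 1.36 at clustering resolution 0.5, 1.39 with galectins in the clustering and 1.06 with each cell weighing the same. With cells named one by one, endothelial-like Lgals1 was 4.87 and microglia-like Lgals3bp 2.99. With free RNA subtracted, astrocyte-like Lgals3bp was -0.082, choroid plexus epithelium-like Lgals3 -1.52, endothelial-like Lgals1 4.19 and ependymal-like Lgals3 -0.39. Each of these classes had another member under 0 after subtraction, so the shares subtracted were too large for that member.

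Other alternatives were added after seeing the data. In cluster 15 alone, endothelial-like Lgals1 was -0.092, Lgals3bp 0.39 and Lgals9 -0.14. Without cluster 3, ependymal-like Lgals3bp was 1.36 and Lgals9 1.10. With the phagocytes summed, Lgals3bp was 2.49 for both microglia-like and macrophage/monocyte-like cells, Lgals3 3.47, Lgals8 -0.51 and Lgals9 -0.013. The mix of cells in that sum differs between the libraries. Without the 5 cells richest in the gene, endothelial-like Lgals1 was 5.28, macrophage/monocyte-like Lgals3 1.60 and mural-like Lgals1 3.84. Low sums limit several values, such as Lgals8 and Lgals9 with 4 and 12 naive UMIs in macrophage/monocyte-like cells.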
